A study of Mus musculus with 3 samples.

Results

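Isolated c-FOS peaks are the listed peaks of this experiment that stand alone along a chromosome. A peak was counted as isolated when no other listed peak lay within 100 kb of it on either side, measured from edge to edge on the mouse assembly mm9. Of 15011 listed peaks, 1790 met this rule, or 11.9% (Wilson 95% interval 11.4 to 12.5%), and the other 13221 are called the rest of the list. The peaks came from ASZ001, an established mouse basal cell carcinoma line, with the genotype RasV12_TGFbR1kd. RasV12 is an activated Ras, and TGFbR1kd stands for an shRNA knockdown of the TGF-beta receptor TGFbR1. Cells were treated with Dox and 4OHT and crosslinked on day 6 after induction. The groups were 2 c-FOS chromatin immunoprecipitation samples and 1 input with no antibody, all 3 with the same genotype and treatment, and an uninduced arm was not analysed here.

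c-FOS is the product of an immediate early gene and a subunit of AP-1. It does not form stable homodimers and binds DNA paired with a JUN protein. AP-1 is induced by growth factor and Ras signalling, is active in epidermal keratinocytes, and binds many enhancers that lie far from gene starts as well as promoters. Enhancers often occur in groups, so a peak list can hold both clusters of sites and single sites.

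Both c-FOS samples are represented by 1 list of coordinates, with no score, height or read count per peak. Depth is unknown, and none of the values below has a replicate error. Since the spacing of the peaks chose the members, distances, densities and chromosome shares describe them and were not tested. Width did not enter the rule. It was compared without a test as well, because peaks of 1 list are not replicates of a condition. Intervals of shares are Wilson 95% intervals and those of medians are exact binomial order-statistic 95% intervals. Both treat peaks as independent and cover counting error only. Whether a longer list, from deeper sequencing or a looser threshold, would place further peaks beside the isolated ones was not tested.

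Isolated peaks were mostly separated from the nearest listed peak by well under 1 Mb. The median distance was 198 kb, with quartiles of 131 and 374 kb, against a median of 7.42 kb in the rest of the list. Of the isolated peaks, 879 (49.1%) lay over 200 kb from any other peak, 314 (17.5%) over 500 kb and 117 (6.54%) over 1 Mb. The limit of 100 kb cut through a falling slope of distances rather than a gap between separate classes. The members just inside the limit were a pair on chromosome 14, at 76410771 to 76410879 (109 bp wide) and 76510883 to 76510980 (98 bp), which lay 100.003 kb apart, and a peak of 104 bp on chromosome 6 (50874742 to 50874845) with a neighbour at 100.054 kb. Just outside it were peaks of 134 bp and 132 bp on chromosome 12 (108890665 to 108890798 and 53604676 to 53604807), with neighbours at 99.665 and 99.658 kb, and one of 434 bp on chromosome 13 (85428701 to 85429134) with a neighbour at 99.647 kb.

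**Figure D1:**
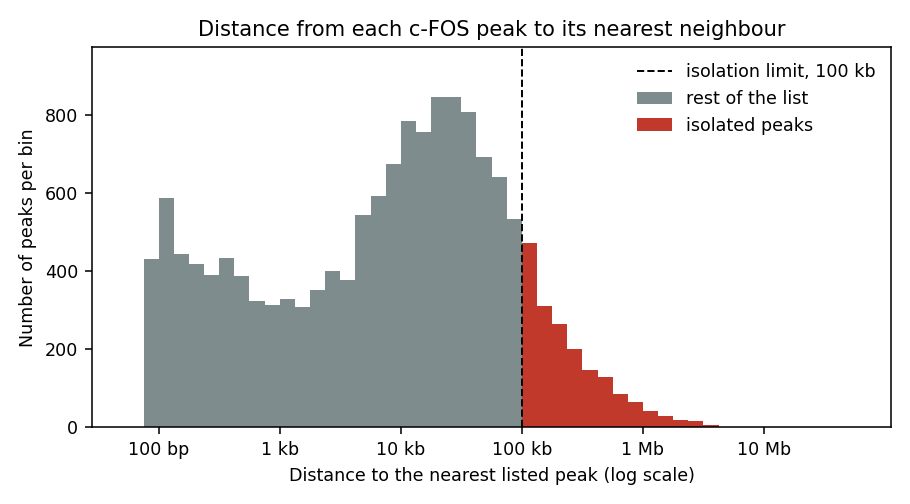
Histogram of the distance from each of 15011 c-FOS peaks to its nearest listed neighbour (x axis, log scale; y axis, number of peaks per bin). The 1790 isolated peaks (red) are the right-hand tail beyond the dashed limit at 100 kb, and they join the rest of the list (grey) without a break.

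Most isolated peaks were placed unevenly between their neighbours. Among the 1767 with a listed peak on both sides, the nearer neighbour lay at a median of 197 kb and the farther one at a median of 587 kb. The farther distance was a median of 2.18 times the nearer. For 517 peaks (29.3%) the distances differed by under 1.5 times, and for 332 (18.8%) by over 5 times. A further 23 isolated peaks were the first (12) or last (11) peak of their chromosome and had a listed neighbour on 1 side only.

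Isolated peaks made up 11.9% of the list and were the closest listed peak for more than 50% of the genome. The rule itself favours a long stretch per isolated peak, because every gap to a listed neighbour exceeds 100 kb. Of 2655 Mb in chromosomes 1 to 19, X and Y, 1464 Mb (55.1%) lay nearer to an isolated peak than to any other peak, and on the autosomes this share was 52.7%. The stretch nearest to each isolated peak had a median of 421 kb, against 34.5 kb for each peak in the rest of the list. The share ranged from 28.5% of chromosome 19 to 82.7% of chromosome 14 among autosomes, and reached 96.7% on chromosome X. The isolated peaks themselves covered 321 kb, 11.3% of the length of all peaks.

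The 10 members farthest from any other peak lay on 6 chromosomes. On chromosome X, the peaks at 7903171 to 7903503 (333 bp) and 39278071 to 39278183 (113 bp) faced each other across 31.4 Mb, and the latter was followed by 54.0 Mb with no peak. Chromosome 14 held 3 of the 10. The peak at 87816177 to 87816459 (283 bp) had its neighbours at 7.99 and 14.2 Mb, that at 41779933 to 41780109 (177 bp) at 6.59 and 4.50 Mb, and that at 117324411 to 117324508 (98 bp) at 11.03 and 3.38 Mb. The remaining 5 were the last peak of chromosome 17 (95149050 to 95149436, 387 bp, nearest peak at 6.21 Mb), a peak on chromosome 12 (66137359 to 66137481, 123 bp, 4.16 Mb), one on chromosome 7 (46887968 to 46888088, 121 bp, 4.04 Mb), another on chromosome X (139771393 to 139771504, 112 bp, 3.24 Mb) and one on chromosome 10 (33670958 to 33671161, 204 bp, 3.19 Mb). Their widths had a median of 150 bp, close to the 150.5 bp of all isolated peaks. Genes near these peaks were not analysed here, because no mm9 annotation was used.

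The share of peaks that were isolated differed widely between chromosomes. On chromosome X, 22 of 34 peaks were isolated, or 64.7% (47.9 to 78.5%). Chromosome 14 followed with 58 of 109, or 53.2% (43.9 to 62.3%), chromosome 12 with 58 of 147, or 39.5% (31.9 to 47.5%), and chromosome 9 with 105 of 340, or 30.9% (26.2 to 36.0%). The lowest shares were on chromosome 19 with 42 of 810, or 5.19% (3.86 to 6.93%), and chromosome 11 with 98 of 1833, or 5.35% (4.41 to 6.47%). Chromosomes 8 (103 of 1405, 7.33%) and 5 (120 of 1630, 7.36%) came next. The intervals of chromosomes 19 and 11 overlapped, as did those of 8 and 5 and those of X and 14. None of the 3 peaks on chromosome Y was isolated. The order of these shares ran almost exactly opposite to peak density (Spearman's rho -0.977 over 19 autosomes), a relation that the rule itself largely sets.

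Counted per Mb, isolated peaks were spread much more evenly over the autosomes than the rest of the list. Their density ran from 0.463 per Mb on chromosome 14 to 0.867 per Mb on chromosome 1, a 1.87-fold range, with a mean-scaled SD over the 19 autosomes of 17.4%. The rest of the list ran from 0.407 per Mb on chromosome 14 to 14.2 per Mb on chromosome 11, a 34.96-fold range, with a mean-scaled SD of 68.9%. Chromosomes 5, 8, 11 and 19 together held 20.3% of the isolated peaks and 40.2% of the rest, on 17.6% of the length. Chromosomes 12 and 14, where peaks are sparse, held 6.48% of the isolated peaks and 1.06% of the rest, on 9.28% of the length. Chromosome 1 contributed the most isolated peaks, 171 or 9.55% of them, against 4.25% of the rest and 7.43% of the length. Chromosome X stood apart from the autosomes with 0.132 isolated peaks per Mb. The density of isolated peaks followed that of the rest only loosely (Spearman's rho 0.188 over 19 autosomes). Fewer peaks can meet the rule where the list is dense, so the rule partly sets both this loose relation and the evenness. Per 1000 protein-coding genes named on the chromosome in GRCm38, isolated peaks ran from 41.4 on chromosome 7 to 149 on chromosome 18 among autosomes, and were 22.8 on chromosome X.

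**Figure D2:**
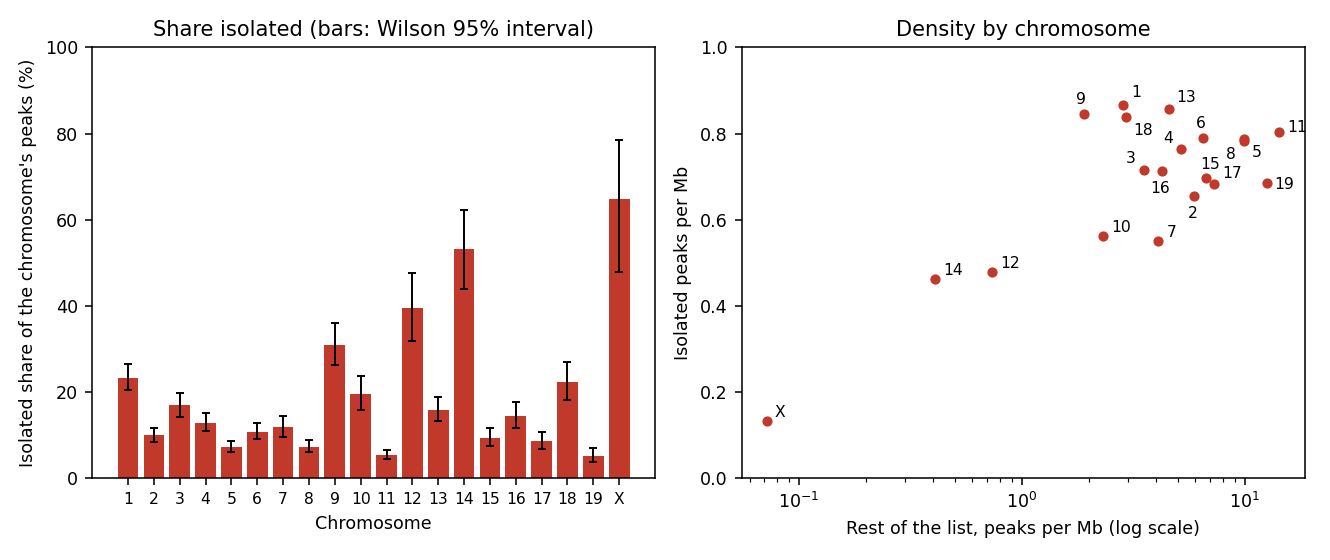
Left, percent of each chromosome's peaks that are isolated, with Wilson 95% intervals; the highest bars are X (64.7%) and 14 (53.2%) and the lowest 19 (5.19%) and 11 (5.35%). Right, isolated peaks per Mb (y axis) against the rest of the list per Mb (x axis, log scale), 1 point per chromosome; the autosomes span 0.463 to 0.867 on the y axis and 0.407 to 14.2 on the x axis. Chromosome Y, with 3 peaks and none isolated, is not drawn.

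Isolated peaks were spread more evenly along the autosomes than the rest of the list, an evenness that the spacing rule again partly sets. Mouse autosomes are numbered from the centromere, so the last part of each lies toward the telomere. Each of 5 equal parts of the autosomes held between 18.3% and 22.1% of the isolated peaks. The rest of the list went from 14.05% in the part next to the centromere to 32.9% in the last part. Accordingly, the isolated share of peaks fell from 14.8% (13.4 to 16.4%) in the first part to 7.74% (7.01 to 8.54%) in the last.

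Isolated peaks were found in empty and in well-filled surroundings, but few lay in the fullest windows. Chromosomes 1 to 19 and X were divided into 2649 windows of 1 Mb, of which 1773 held a peak and 1236 held an isolated peak. In 503 windows every peak was isolated, and these windows contained 732 of the 1790 isolated peaks. Where a window held a single peak, that peak was isolated in 325 of 334 cases. The rule nearly fixes this, because such a peak fails it only through a neighbour within 100 kb across the window edge. In the 174 windows with more than 20 peaks, 50 of 5760 peaks, or 0.868% (0.659 to 1.14%), were isolated. These 50 made up 2.79% of all isolated peaks. The rule largely sets this low number as well. The highest number of isolated peaks in 1 window was 6.

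**Figure D3:**
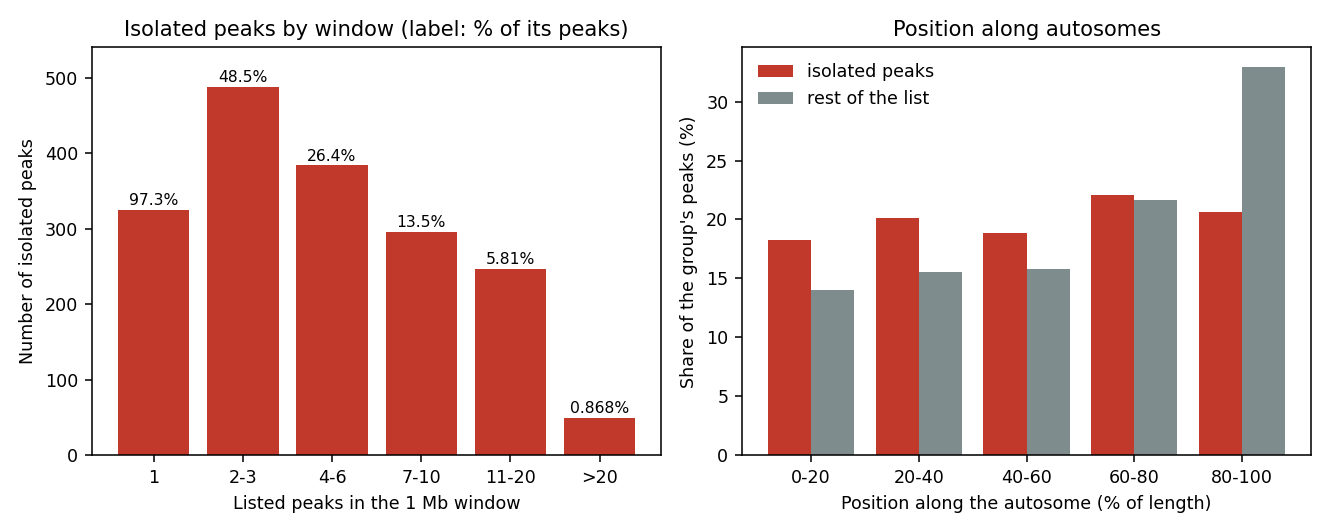
Left, number of isolated peaks in 1 Mb windows grouped by how many peaks the window lists, with the isolated percentage of the peaks in those windows above each bar, from 97.3% in windows with 1 peak to 0.868% in windows with more than 20. The spacing rule largely sets this fall. Right, share of isolated peaks (red) and of the rest of the list (grey) in 5 equal parts of the autosomes; red stays between 18.3% and 22.1% and grey reaches 32.9% in the last part.

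Isolated peaks often followed one another along a chromosome. At least 1 of the flanking peaks was itself isolated for 1361 of the 1790. Among the 1767 with a listed peak on both sides, both flanking peaks were isolated for 545, 1 of them for 805 and neither for 417. The isolated peaks formed 837 uninterrupted runs. Of these, 429 were runs of 1, 12 of them at the first or last peak of a chromosome, and 74 were runs of 5 or more, which contained 500 peaks. The longest run, singled out after its length was seen, was on chromosome 4 from 97085295 to 107830622, where 15 isolated peaks in a row spanned 10.7 Mb. The next was on chromosome 9 from 79607545 to 96264972, with 14 in 16.7 Mb. The 1651 non-isolated peaks beside an isolated peak were themselves spaced more widely than the other non-isolated peaks. Their nearest neighbour lay at a median of 23.2 kb against 6.37 kb, and 19.5% (17.7 to 21.5%) had a neighbour within 1 kb against 29.5% (28.6 to 30.3%). These distances also follow from the spacing that the rule used. The runs depend on it too, because a peak beside an isolated peak already has a gap over 100 kb on 1 side.

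Isolated peaks were slightly narrower than the rest of the list. Their median width was 150.5 bp (147 to 154), with quartiles of 113 and 216 bp, against 159 bp (158 to 161), with quartiles of 120 and 226 bp. The difference of medians was -8.5 bp (isolated minus rest), small beside the spread of either group. Peaks with a neighbour within 1 kb had a median of 167 bp (164 to 171), and the rest of the list without such peaks had a median of 157 bp (155 to 158). Against that narrower comparison the interval of the isolated peaks still did not overlap, although the difference was -6.5 bp. Split by distance to the nearest peak, it did overlap each class of these others. Their medians were 157 bp (153 to 161) at 1 to 10 kb and 156 bp (152 to 159) at 10 to 30 kb. At 30 to 100 kb the median was 157 bp (153 to 160). Isolated peaks had the lower median on 14 of 19 autosomes and the higher one on 5. With the limit at 200 kb, isolated peaks had the lower median on 9 autosomes and the higher on 10, so the direction within chromosomes depended on the limit.

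The width difference between isolated peaks and the rest varied by chromosome, and the intervals of the medians were apart on only 2 of the 20 chromosomes with isolated peaks. These were chromosome 5, with 139 bp (129 to 150) against 160 bp (156 to 165), and chromosome 8, with 137 bp (124 to 147) against 159 bp (153 to 164). The size of the difference was largest among autosomes on chromosome 14, where the 58 isolated peaks had a median of 132 bp (123 to 158) and the 51 others 191 bp (142 to 206). Chromosome 6 followed with 134 bp (122 to 163) against 165 bp (160 to 170). The 5 autosomes with wider isolated peaks were 18 (175.5 against 156 bp), 12 (148 against 135 bp), 1 (168 against 158 bp), 4 (157 against 152 bp) and 17 (168 against 165 bp). On chromosome X the medians were 172 bp (135 to 246) for 22 isolated peaks and 104 bp (101 to 176) for 12 others.

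The lowest listed width, 98 bp, was more frequent among isolated peaks. It was the width of 241 of 1790 isolated peaks, or 13.5% (11.96 to 15.1%), and of 1372 of 13221 others, or 10.4% (9.87 to 10.9%). The share was higher in isolated peaks on 15 of 19 autosomes, with chromosomes 11, 12, 18 and 19 the exceptions. Peaks with a neighbour within 1 kb had the lowest share, 8.42% (7.57 to 9.35%), while those 30 to 100 kb from the nearest peak, which are not isolated, reached 12.3% (11.1 to 13.6%), about the same as the 12.1% (10.1 to 14.4%) at 100 to 200 kb. Without peaks of 98 bp, the medians were 164 bp (159 to 169) for isolated peaks and 169 bp (168 to 171) for the rest, and these intervals met. A floor at 1 width can come from the caller's settings, which none of the sources used here states, and the part of this floor in the difference was not tested.

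**Figure D4:**
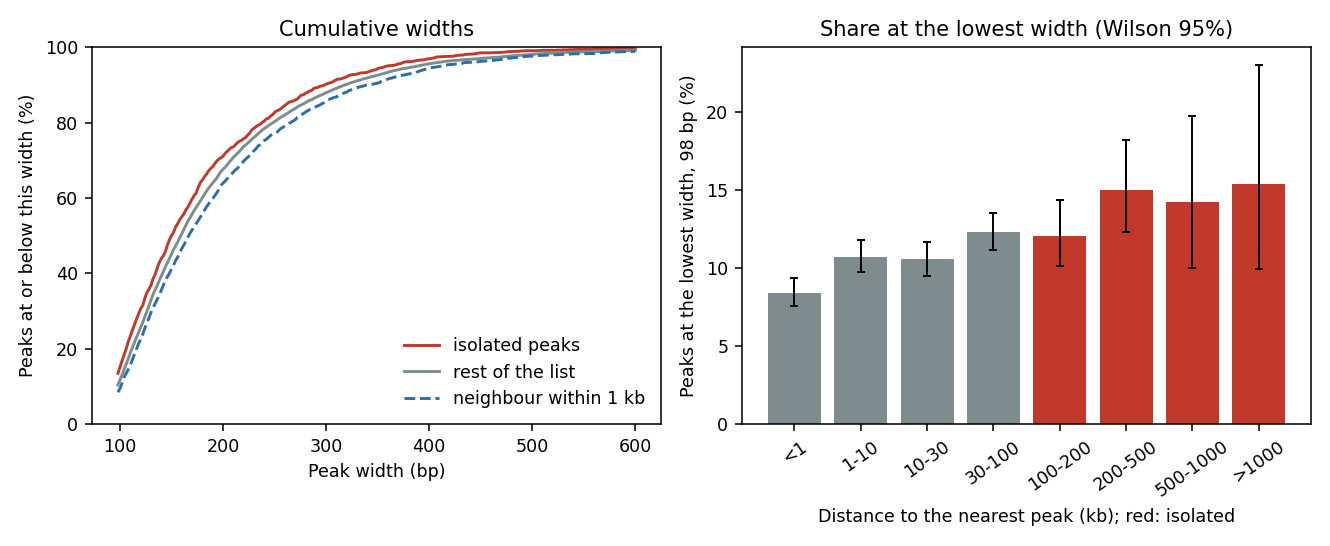
Left, percent of peaks at or below each width (x axis, bp) for isolated peaks (red), the rest of the list (grey) and peaks with a neighbour within 1 kb (dashed blue); the red curve lies above the others, with medians of 150.5, 159 and 167 bp. Right, percent of peaks at the lowest width of 98 bp by distance to the nearest peak in kb, with Wilson 95% intervals, from 8.42% below 1 kb to 15.4% above 1 Mb; the intervals of the isolated classes (red) overlap one another and that of the 30 to 100 kb class.

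Wide peaks were rarer among isolated peaks. Widths over 500 bp were found for 16 isolated peaks, or 0.894% (0.551 to 1.45%), and for 247 others, or 1.87% (1.65 to 2.11%). Widths over 300 bp were found for 9.78% (8.49 to 11.2%) and 12.03% (11.5 to 12.6%). The 16 lay on 12 chromosomes. By distance to the nearest peak, widths over 500 bp were found for 7 of 911 isolated peaks at 100 to 200 kb (0.768%), 5 of 565 at 200 to 500 kb (0.885%), 4 of 197 at 500 kb to 1 Mb (2.03%, 0.792 to 5.10%) and 0 of 117 above 1 Mb (upper bound 3.18%). The share at 500 kb to 1 Mb was thus not below that of the rest of the list, and its interval was wide. The widest isolated peak, on chromosome 11 from 89048064 to 89048994, measured 931 bp and was also close to the limit, with neighbours at 109 and 114 kb. The others among the 5 widest were on chromosome 19 (24551634 to 24552335, 702 bp, neighbours at 197 and 223 kb), chromosome 11 (105043054 to 105043724, 671 bp, 244 and 234 kb), chromosome 4 (4720111 to 4720763, 653 bp, 147 and 645 kb) and chromosome 5 (46248674 to 46249308, 635 bp, 289 kb and 2.26 Mb). Peaks of the rest of the list reached 2729 bp.

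Beyond the limit, widths were much alike at every distance. The median was 149 bp at 100 to 200 kb from the nearest peak (911 peaks), 151 bp at 200 to 500 kb (565), 154 bp at 500 kb to 1 Mb (197) and 151 bp above 1 Mb (117). Spearman's rho between width and distance over the 1790 isolated peaks, which share 1 list and 1 calling, was 0.0026. Set beside the rest of the list in windows of the same peak number, isolated peaks had a lower median in windows of 4 to 6 peaks, 150 bp (144 to 158) against 164 bp (159 to 171). In windows of 7 to 10 peaks (144.5 against 157 bp), 11 to 20 peaks (146 against 159 bp), 2 to 3 peaks (154 against 157 bp) and more than 20 peaks (155 against 160 bp) the isolated median was lower as well, but the intervals overlapped. In windows with a single peak the median was 157 bp (147 to 168) for 325 isolated peaks. For the 9 others it was 110 bp (98 to 237), an interval that contains that of the isolated peaks. Each isolated peak was also set beside the nearest non-isolated peak on its chromosome, which several isolated peaks could share. Of the 1790, 943 were narrower, 815 wider and 32 equal, with a median difference of -5.5 bp (-11 to -1). That interval treats the differences as independent, although those with a shared partner are not.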

How the data were processed

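Reads were aligned to mm9 with Bowtie2 and peaks called with MACS2, per the submitters' processing notes. None of the sources used here gives versions, the threshold, the use of the input or how the 2 samples were combined. The authors deposited 1 list of chromosome, start and end, whose values are positions in bp and carry no score. No peak passed an mm9 chromosome end, whereas 55 passed mm10 ends (lengths from GenomeInfoDb 1.38.1, R 4.3.3). Coordinates are printed 1-based. Gaps were computed between edges of neighbouring peaks (Python 3.11.15, numpy 2.4.6, pandas 2.3.3, scipy 1.17.1, matplotlib 3.10.9). The neighbour search was checked on a simulated list, and bedtools 2.31.1 gave the same number, 1790. Windows of 1 Mb took peaks by midpoint. Assembly gaps and mappability were not used here.

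The named regions are the 10 most distant, the 5 widest, and 3 on either side of the limit. The members and lists were chosen with earlier results of these data known. An mm9 sequence and annotation were not used here, so the planned motif search and nearest genes were not run and no sequence is printed. The GRCm38 gene table served only to count protein-coding genes per chromosome.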

Additional observations from a re-analysis of the deposited data

How the results depend on the processing

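The limit of 100 kb sets the size of the group: 3257 peaks (21.7% of the list) were isolated at 50 kb and 879 (5.86%) at 200 kb. The isolated share of chromosome 14 was then 67.0% and 36.7%, and that of chromosome 19 13.3% and 1.73%. At 50 kb (10.3%) and after merging peaks within 1000 bp (6.60%), chromosome 11 replaced chromosome 19 as the lowest autosome, while chromosome 14 remained the highest autosome under all 7 alternatives. Merging peaks within 1000 bp left 1943 isolated regions, 15.02% of 12933, with a median width of 158 bp and a chromosome 19 share of 7.03%. Widths over 500 bp then made up 6.69% of the isolated regions and 12.4% of the merged rest. Merged regions are wider and fewer, and a close group of peaks can become a single isolated region, so the members also changed. Leaving out peaks of 98 bp made 12.99% isolated, with a median width of 165 bp. The median width of isolated peaks stayed below that of the rest under each alternative, by -4 bp (98 bp peaks left out) to -13 bp (merged). At 200 kb the difference was -6 bp (-13 to 3) and without 98 bp peaks -4 bp (-10 to 2), intervals that include 0. Midpoint distances, autosomes alone and a neighbour required on both sides moved no value beyond its interval or range. The share at 98 bp has no value once those peaks are left out. With 1 list for both samples, no replicate could be left out. No paired analysis was possible because the list names no replicate.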
